A study of Mus musculus with 12 samples.

Results

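A set of 29 genes of S phase and DNA replication was followed through RNA sequencing of cultured mouse muscle stem cells, out of 23586 genes in the deposited table. The members were taken by gene name, as genes that license replication origins, work at the replication fork or make its nucleotides, and all 29 were found. All 29 also passed the filter for testing (10 or more normalized counts in 3 or more libraries), as did 14580 genes in all. The cells carried the Pax3nLacZ-IRES-GFP allele in every group, and were sorted by flow cytometry into GFP-positive cells, which the labels call PAX3-positive, and GFP-negative cells, which they call PAX3-negative. Cultures received 20% serum and the mitogen basic FGF at 4 ng/mL, and each population was transfected with 2 µg of either the pCR3-Six2 plasmid, which carries the mouse Six2 coding DNA, or empty pCR3. Six2 encodes a homeobox transcription factor, and Pax3 a paired-box factor of muscle progenitors. The 4 groups were GFP-positive SIX2, GFP-positive control, GFP-negative SIX2 and GFP-negative control, with 3 libraries each. The plasmid labels can thus be compared within each population. Transfection can reach only part of a culture, and each library pooled at least 50000 cells, so values may average transfected and untransfected cells. The transfected share was not measured here. The sources used here give no age or sex of the mice.

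Before S phase, cells load pairs of MCM helicase rings onto replication origins with the help of the origin recognition complex, Cdc6 and Cdt1, a step called licensing. At the start of S phase, kinases with Cdc45, the GINS complex and Mcm10 switch the rings on, and polymerases, primase and the sliding clamp Pcna copy the DNA. Most of these genes are known targets of the E2F factors, whose activity depends on D and E cyclins, and muscle progenitors are known to switch them off as they leave the cell cycle to differentiate.

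Depth per library was 12632428 to 15492340 reads for GFP-positive SIX2, 31295165 to 47299937 reads for GFP-positive control, 34048869 to 40182810 reads for GFP-negative SIX2 and 12438885 to 33151990 reads for GFP-negative control cells. The lowest count of a member in any library was 27 reads, for E2f1. Six2 itself had 2 to 36 reads in every library and its difference by plasmid label did not pass the test (log2 change 1.26 in GFP-positive cells, adjusted p = 0.209, and 0.80 in GFP-negative cells, 0.421, limma-trend), so its level in these libraries does not check the plasmid labels, and groups are named here by label. The labels' protocol reports a check of Six2 by RT-qPCR, not analysed here. Pax3 did not pass the test between the sorted populations under the control label (log2 difference −0.01, adjusted p = 0.991, limma-trend). Muscle markers were high, with Myod1, a muscle lineage factor, at 14410 to 19016 and Des, muscle desmin, at 97424 to 183827 normalized counts. Dcn, Lyz2 and Adgre1, defining markers of fibroblasts and macrophages, were at 0 in 11 libraries each, and Cdh5, of endothelium, reached at most 5.85 normalized counts. Some other markers of those cells reached 10 normalized counts in most libraries, among them Gsn at 2672 to 3667, Itgam at 6.59 to 92.1 and Egfl7 at 16.1 to 89.3. Cd34, Cd68, Cd14, Csf1r and Ly6a also reached 10 in 7 to 12 libraries, and Pdgfra in 6. Of the rest, Pecam1, Tek, Emcn and Erg reached 10 in 1 library each, and Kdr, Esam, Cldn5, Pi16 and Col15a1 in 0. Whether replicate libraries stem from different mice or culture dishes is not given, so p-values here reflect library-to-library spread, which may be technical. No pair of replicates agreed within sampling noise (chi-square per degree of freedom 7.18 to 45.3).

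Replication genes were higher in the libraries labelled SIX2 in both sorted populations. In GFP-positive cells, 25 of 29 members were higher and 0 lower at an adjusted p under 0.05, where 12.1% of all tested genes were called higher and 11.2% lower. In GFP-negative cells, 26 were higher and 1, Rrm1, was lower, where 13.6% of tested genes were called higher and 14.3% lower. The test was limma-trend on log2(normalized count + 1), with Benjamini-Hochberg adjustment over all 14580 tested genes. The members' median log2 change was 0.93 in GFP-positive and 0.73 in GFP-negative cells, against −0.01 and 0.00 over all tested genes. Members called higher with an estimated change over 2-fold numbered 10 in GFP-positive cells (3.53% of tested genes) and 7 in GFP-negative cells (3.72%). The call was against no change and not against 2-fold. The count of 0 lower members in GFP-positive cells was 0 also at an unadjusted p under 0.05, and by edgeR and DESeq2. In bulk RNA, more cells in S phase and more RNA per cell cannot be told apart.

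The 3 SIX2 libraries lay above all 3 control libraries of the same population for 26 members in GFP-positive cells (18.7% of tested genes) and for 28 in GFP-negative cells (22.8%). For 25 members, all 6 SIX2 libraries lay above all 6 control libraries, which held for 8.76% of tested genes. The 4 exceptions were Cdc45, Rpa2, Rrm1 and E2f1. Summed over the members, levels came to 52737 to 57541 normalized counts in GFP-positive SIX2 libraries, against 34695 to 38580 in GFP-positive control libraries, and to 58940 to 62294 in GFP-negative SIX2 libraries, against 40736 to 42654 in GFP-negative control libraries. The plasmid labels therefore did not overlap in this sum in either population. Read depth also differed by label, lower in SIX2 than control libraries in GFP-positive cells and higher in SIX2 than in control libraries in GFP-negative cells. After thinning every library to the smallest total, 24 and 25 members were called higher.

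**Figure D1:**
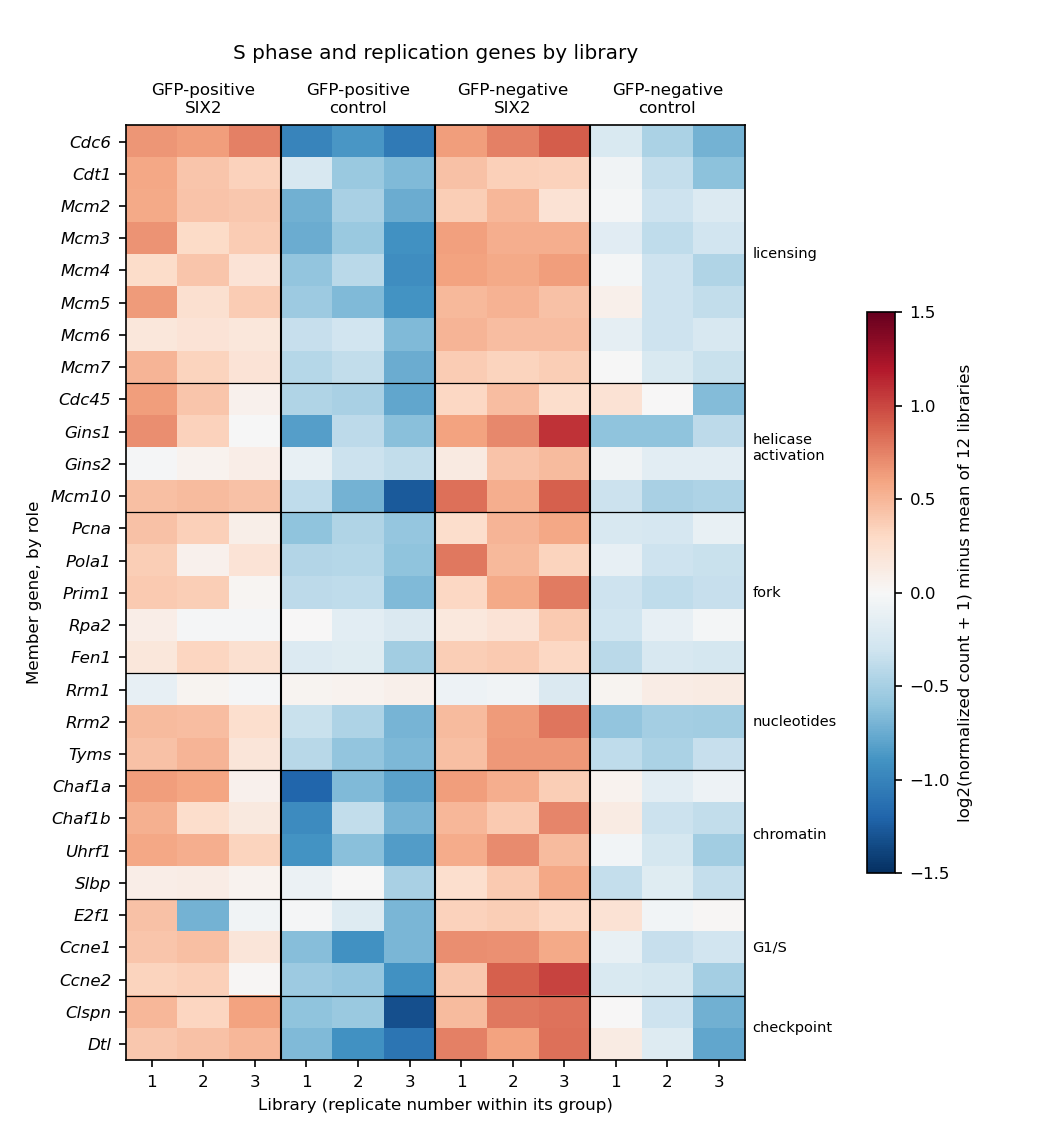
Heat map of the 29 members, grouped by role down the page, in the 12 libraries grouped by population and plasmid label across it. Colour gives log2(normalized count + 1) minus the gene's mean over the 12 libraries, red above and blue below. SIX2 columns are mostly red and control columns mostly blue in both populations, with Rrm1 close to white throughout and E2f1 mixed.

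Origin licensing genes rose together. All 8 members with this role, the loaders Cdc6 and Cdt1 and the helicase subunits Mcm2 to Mcm7, were called higher in both populations, with a median log2 change of 1.03 in GFP-positive and 0.72 in GFP-negative cells. Cdc6 (chr11:98907801-98923940, plus strand, build GRCm38), the ATPase that brings MCM rings to origins, had 659, 647 and 707 normalized counts in GFP-positive SIX2 libraries, against 209, 227 and 199.95 in GFP-positive control libraries. In GFP-negative cells it had 644, 703 and 785 in SIX2 libraries, against 356, 300.5 and 255 in control libraries. SIX2 and control libraries did not overlap, and Cdc6 had the largest change of any member in GFP-positive cells (log2 change 1.66 ± 0.13 SE, limma-trend adjusted p = 2.98e-06). In GFP-negative cells its change was 1.23 ± 0.13 SE (adjusted p = 2.4e-05, limma-trend). Cdt1, its loading partner, had 627 to 734 normalized counts in GFP-positive SIX2 libraries, against 310.5 to 416 in GFP-positive control libraries, and changed by 0.93 there and by 0.73 in GFP-negative cells on the log2 scale.

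Among the helicase subunits, Mcm2 (chr6:88883474-88898780, minus strand) had 2597, 2369 and 2335 normalized counts in GFP-positive SIX2 libraries, against 1066, 1255 and 1053 in GFP-positive control libraries. In GFP-negative cells Mcm2 had 2271, 2481 and 2048 in SIX2 libraries, against 1726, 1416 and 1519.6 in control libraries. The gap between labels was wider in GFP-positive cells (log2 change 1.12 ± 0.10 SE) than in GFP-negative cells (0.54 ± 0.10 SE), a difference tested further on as the interaction. Mcm6 had 3262, 3332 and 3252 in GFP-positive SIX2 libraries, against 2267, 2364 and 1832 in GFP-positive control libraries. In GFP-negative cells Mcm6 had 4111, 4001 and 3983 in SIX2 libraries, against 2630.4, 2324 and 2457 in control libraries. Its log2 changes were 0.62 and 0.71 (limma-trend adjusted p = 0.000219 and 6.6e-05), without overlap of the labels. The other subunits changed by 1.18 (Mcm3), 0.94 (Mcm4), 1.12 (Mcm5) and 0.86 (Mcm7) in GFP-positive cells, and by 0.85, 0.86, 0.69 and 0.55 in GFP-negative cells on the log2 scale. Mcm7 shares exon sequence with Ap4m1 and Cops6 on the other strand, whose reads cannot be told apart in an unstranded library.

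The 6 subunits form 1 ring in equal number, so their levels were set beside each other per kilobase of transcript. The length, here and in later values per kilobase, was that of each gene's longest annotated protein-coding transcript, and ranks between genes depend on that choice. Within a library, the highest subunit had 1.53 to 2.10 times the normalized counts per kilobase of the lowest. Mcm5 was the lowest in 10 of the 12 libraries and Mcm4 in the other 2, and Mcm6 or Mcm7 was the highest. The ratio was 1.53 to 1.80 in GFP-positive SIX2 libraries, against 1.86 to 2.10 in GFP-positive control libraries. In GFP-negative cells the labels overlapped, at 1.56 to 1.64 in SIX2 libraries, against 1.57 to 1.79 in control libraries.

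Promoter sequences were read because E2F sites are a known shared feature of genes of this kind. Windows are printed for the 7 licensing genes that have one, for Dtl, which had the next largest change after Cdc6 in GFP-positive cells, and for Rrm2 and Rrm1, which differ in response. The RefSeq table (build GRCm38.p6) held windows from 250 bases before to 50 bases after the gene start for 25 members, 28 windows in all, and none for Mcm4, Gins1, Gins2 and Ccne2. The gene start is that of RefSeq, and it can differ from the GENCODE gene bounds given elsewhere. The windows of Cdc6, Mcm7 and E2f1 and a further window of Uhrf1 lie inside those bounds. Each was searched on both strands for the E2F letters TTTCCCGC, TTTCGCGC, TTTGCCGC and TTTGGCGC, for CCAAT, and for the cell cycle homology region letters TTTGAA and TTCGAA. An E2F match stood in 10 of 28 member windows, or 35.7%, against 3.75% of 13644 windows of tested genes and 2.26% of all 32851 windows. CCAAT stood in 71.4% of member windows, against 37.7% in tested genes and 37.4% in all windows, and the homology region letters in 14.3%, against 14% and 19.2%. The members with an E2F match were Cdc6, Cdt1, Mcm3, Mcm5, Mcm6, Mcm7, Pola1, Uhrf1, Clspn and Dtl. For Uhrf1 the match stood in a further window, and the window that spans its GENCODE gene start held none. The 10 members with a match had a median log2 change of 1.15 in GFP-positive and 0.82 in GFP-negative cells. The medians were 0.89 and 0.66 for the 15 members with a window and no match. For the 4 members with no window they were 0.92 and 0.99, above the match group in GFP-negative cells. These medians are a description with no test. In the windows printed here, capitals mark the E2F matches and all else is lower case, 5′ to 3′ on the gene's strand.
Cdc6, chr11:98907901-98908200, plus strand: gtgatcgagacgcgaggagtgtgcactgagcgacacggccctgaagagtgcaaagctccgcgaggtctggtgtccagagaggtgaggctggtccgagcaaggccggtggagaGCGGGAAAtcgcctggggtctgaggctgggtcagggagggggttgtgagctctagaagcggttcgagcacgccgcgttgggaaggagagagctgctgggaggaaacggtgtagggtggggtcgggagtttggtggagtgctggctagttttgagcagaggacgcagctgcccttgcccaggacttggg
Cdt1, chr8:122567765-122568064, plus strand: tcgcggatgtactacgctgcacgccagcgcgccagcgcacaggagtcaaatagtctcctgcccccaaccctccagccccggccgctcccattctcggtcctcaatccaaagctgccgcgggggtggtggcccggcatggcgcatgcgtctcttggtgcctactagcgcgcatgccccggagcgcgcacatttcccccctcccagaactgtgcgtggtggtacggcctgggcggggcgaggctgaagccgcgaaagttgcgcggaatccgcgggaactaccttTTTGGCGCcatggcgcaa
Mcm2, chr6:88898731-88899030, minus strand: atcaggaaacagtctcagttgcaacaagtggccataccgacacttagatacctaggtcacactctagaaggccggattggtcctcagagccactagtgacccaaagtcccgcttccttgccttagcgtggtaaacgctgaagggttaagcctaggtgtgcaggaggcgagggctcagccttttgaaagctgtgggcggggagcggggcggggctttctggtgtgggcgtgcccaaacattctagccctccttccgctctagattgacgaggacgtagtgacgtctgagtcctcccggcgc
Mcm3, chr1:20820263-20820562, minus strand: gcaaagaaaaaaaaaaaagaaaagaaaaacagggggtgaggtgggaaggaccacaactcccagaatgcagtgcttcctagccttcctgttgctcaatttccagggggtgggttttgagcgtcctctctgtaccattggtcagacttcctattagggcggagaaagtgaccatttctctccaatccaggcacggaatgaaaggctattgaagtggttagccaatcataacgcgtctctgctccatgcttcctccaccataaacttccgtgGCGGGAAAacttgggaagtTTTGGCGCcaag
Mcm5, chr8:75109259-75109558, plus strand: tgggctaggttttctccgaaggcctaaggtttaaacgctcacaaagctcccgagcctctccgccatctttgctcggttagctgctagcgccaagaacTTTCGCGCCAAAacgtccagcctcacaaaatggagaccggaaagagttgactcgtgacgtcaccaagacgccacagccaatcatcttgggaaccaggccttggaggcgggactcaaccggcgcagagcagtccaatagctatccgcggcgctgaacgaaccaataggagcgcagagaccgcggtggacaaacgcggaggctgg
Mcm6, chr1:128359656-128359955, minus strand: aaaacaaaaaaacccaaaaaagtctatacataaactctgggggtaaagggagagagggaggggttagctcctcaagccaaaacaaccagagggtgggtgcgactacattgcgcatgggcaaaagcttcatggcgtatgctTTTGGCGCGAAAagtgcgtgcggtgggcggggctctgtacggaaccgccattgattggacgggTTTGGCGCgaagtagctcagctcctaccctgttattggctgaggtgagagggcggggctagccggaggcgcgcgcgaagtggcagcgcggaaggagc
Mcm7, chr5:138171834-138172133, minus strand: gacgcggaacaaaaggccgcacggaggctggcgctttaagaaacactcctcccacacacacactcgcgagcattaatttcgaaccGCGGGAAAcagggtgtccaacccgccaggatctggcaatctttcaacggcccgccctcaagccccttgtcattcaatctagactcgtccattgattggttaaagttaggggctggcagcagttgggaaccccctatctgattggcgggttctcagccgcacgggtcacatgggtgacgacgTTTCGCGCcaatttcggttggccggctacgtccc
Dtl, chr1:191575495-191575794, minus strand: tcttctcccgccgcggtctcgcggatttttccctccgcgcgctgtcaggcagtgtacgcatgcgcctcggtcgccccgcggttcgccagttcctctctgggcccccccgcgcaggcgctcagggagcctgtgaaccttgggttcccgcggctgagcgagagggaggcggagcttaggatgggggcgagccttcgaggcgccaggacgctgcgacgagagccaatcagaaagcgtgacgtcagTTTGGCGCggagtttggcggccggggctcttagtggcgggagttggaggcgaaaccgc
Rrm2, chr12:24708004-24708303, plus strand: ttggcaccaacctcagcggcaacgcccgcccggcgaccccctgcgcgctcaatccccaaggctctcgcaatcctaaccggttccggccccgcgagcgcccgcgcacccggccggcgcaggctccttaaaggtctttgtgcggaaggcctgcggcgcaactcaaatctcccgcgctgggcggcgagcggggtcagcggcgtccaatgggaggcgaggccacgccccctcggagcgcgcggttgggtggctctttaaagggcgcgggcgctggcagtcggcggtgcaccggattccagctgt
Rrm1, chr7:102441445-102441744, plus strand: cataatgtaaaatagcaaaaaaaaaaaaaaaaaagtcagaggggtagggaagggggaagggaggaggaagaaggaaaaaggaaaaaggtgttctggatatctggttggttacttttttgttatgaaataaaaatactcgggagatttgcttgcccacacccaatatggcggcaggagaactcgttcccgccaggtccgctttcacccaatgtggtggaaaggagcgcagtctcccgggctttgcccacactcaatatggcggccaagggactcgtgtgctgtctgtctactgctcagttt
Counting the first base of the gene start as 0, the match in Cdc6 began at −138, that in Cdt1 at 32, those in Mcm3 at 19 and 38, and that in Dtl at −8. Mcm5 held 2 overlapping matches at −153 and −149 on opposite strands, Mcm6 held an overlapping pair at −110 and −106 and a further match at −47, and Mcm7 held matches at −165 and 16. The match at 16 in Mcm7 overlapped a CCAAT match by its last base, and no other E2F match in the members overlapped a CCAAT or homology region match. Rrm2 and Rrm1 are shown as the ribonucleotide reductase subunits of the paragraphs that follow, one higher in SIX2 libraries and one not, and neither window held these E2F letters. Mcm2 also held none, and neither did a further window of Mcm7, not printed. A match is a string of letters and not a measured binding site.

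Of the 4 genes of helicase activation, all were called higher in GFP-positive cells and 3 in GFP-negative cells. Cdc45, which travels with the active helicase, had 763, 663 and 518 normalized counts in GFP-positive SIX2 libraries, against 363, 353 and 288 in GFP-positive control libraries. In GFP-negative cells Cdc45 had 616, 682 and 595 in SIX2 libraries, against 578, 499 and 315 in control libraries. The labels did not overlap in either population, but the spread among GFP-negative control libraries was wide, and the change there did not pass the test (log2 0.49 ± 0.20 SE, adjusted p = 0.0852, limma-trend; 0.94 ± 0.20 SE, adjusted p = 0.00398 in GFP-positive cells). This value of Cdc45 rested on single libraries. It was 0.67 without GFP-negative control library 1 (limma-trend adjusted p = 0.0325) and 0.23 without GFP-negative control library 3 (adjusted p = 0.354). It was also called with library weights (0.45, adjusted p = 0.0229) and with the replicate number as a block (adjusted p = 0.0247). Cdc45 overlaps exons of Ufd1 on the other strand.

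Mcm10, a factor that starts helicase movement, had 502, 511 and 495 normalized counts in GFP-positive SIX2 libraries, against 279.97, 223 and 152 in GFP-positive control libraries. In GFP-negative cells Mcm10 had 650.4, 532 and 680.3 in SIX2 libraries, against 293, 260.04 and 265 in control libraries. Its log2 changes of 1.24 ± 0.18 SE and 1.18 ± 0.18 SE differed by less than 1 SE, with limma-trend adjusted p = 0.00029 and 0.000345. The GINS subunits Gins1 and Gins2, parts of the same complex, both rose, Gins1 by 0.96 and 1.33, and Gins2 by 0.32 and 0.47, in GFP-positive and GFP-negative cells. Per kilobase, the ratio of Gins1 to Gins2 was 0.567 to 1.00 in GFP-positive SIX2 libraries, against 0.369 to 0.584 in GFP-positive control libraries. It was 0.746 to 0.935 in GFP-negative SIX2 libraries, against 0.415 to 0.517 in GFP-negative control libraries. Gins2 lies across exons of Gse1 on the other strand. Its call in GFP-positive cells was close to the threshold (limma-trend adjusted p = 0.0446) and was lost when any of 9 single libraries was left out, with adjusted p = 0.0541 to 0.137. Those were GFP-positive SIX2 libraries 1, 2 and 3, GFP-positive control libraries 2 and 3, GFP-negative SIX2 library 2 and GFP-negative control libraries 1, 2 and 3. The Gins2 call was also lost with no filter (adjusted p = 0.0627), under quantile normalization (0.0805), with only the compared libraries (0.0805), with the replicate number as a block (0.0733), after thinning (0.0646) and with the GC trend removed (0.0933).

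At the fork, 4 of 5 members were called higher in GFP-positive cells and all 5 in GFP-negative cells. Pcna (chr2:132249162-132253314, minus strand), the sliding clamp of the polymerases, had 2779.6, 2633 and 2169 normalized counts in GFP-positive SIX2 libraries, against 1345, 1495 and 1367 in GFP-positive control libraries. In GFP-negative cells Pcna had 2460.4, 2926 and 3062 in SIX2 libraries, against 1739, 1712 and 1888 in control libraries. Its log2 changes were 0.84 ± 0.10 SE and 0.66 ± 0.10 SE (limma-trend adjusted p = 7.32e-05 and 0.000403), without overlap between labels. The annotation holds 2 pseudogenes named for Pcna, and how reads were shared among them is not given in the sources used here. Fen1, the nuclease that trims Okazaki fragments, had 1275, 1424 and 1345 in GFP-positive SIX2 libraries, against 988, 1000.1 and 792 in GFP-positive control libraries. In GFP-negative cells Fen1 had 1473, 1492 and 1415 in SIX2 libraries, against 861, 959 and 946 in control libraries. Fen1 rose by 0.55 and 0.66 on the log2 scale, again with the labels apart, and its exons overlap those of Tmem258 and an antisense gene.

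Rpa2, a subunit of the protein that coats single-stranded DNA, moved least among the fork genes. It had 1159, 1074 and 1073 normalized counts in GFP-positive SIX2 libraries, against 1088, 972 and 935 in GFP-positive control libraries, which overlap. In GFP-negative cells Rpa2 had 1207, 1245 and 1419.5 in SIX2 libraries, against 885, 993 and 1066 in control libraries, which do not. The log2 change was 0.14 (95% interval −0.06 to 0.35, adjusted p = 0.311, limma-trend) in GFP-positive cells and 0.40 ± 0.10 SE (adjusted p = 0.00754) in GFP-negative cells. The GFP-negative call was lost after thinning (log2 change 0.30, limma-trend adjusted p = 0.0617). Pola1, the catalytic subunit of the primase-bound polymerase, had 290.3 to 359 normalized counts in GFP-positive SIX2 libraries, against 181 to 205 in GFP-positive control libraries. In GFP-negative cells Pola1 had 351 to 479 in SIX2 libraries, against 219 to 255 in control libraries. Prim1, its primase partner, had 461 to 593 in GFP-positive SIX2 libraries, against 285 to 347 in GFP-positive control libraries. In GFP-negative cells Prim1 had 559 to 772 in SIX2 libraries, against 346 to 364 in control libraries. Both partners rose, Pola1 by 0.71 and 0.79 and Prim1 by 0.74 and 0.90 on the log2 scale.

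The subunits of ribonucleotide reductase, which makes deoxynucleotides, moved apart. Rrm2 (chr12:24708241-24714146, plus strand), the small subunit that is known to be limiting in S phase, had 11279, 11126 and 9644 normalized counts in GFP-positive SIX2 libraries, against 6435, 5853 and 5007 in GFP-positive control libraries. In GFP-negative cells Rrm2 had 11242, 12638 and 14123 in SIX2 libraries, against 5366, 5686 and 5637 in control libraries. It rose in both populations with no overlap (log2 0.89 ± 0.10 SE and 1.18 ± 0.10 SE, limma-trend adjusted p = 3.36e-05 and 4.96e-06). Rrm1 (chr7:102441695-102469771, plus strand), the large catalytic subunit, had 12301, 13782 and 13314 in GFP-positive SIX2 libraries, against 13857, 13966 and 14129.9 in GFP-positive control libraries. In GFP-negative cells Rrm1 had 12766, 13002 and 11539.7 in SIX2 libraries, against 13882, 14461 and 14638 in control libraries. Its SIX2 libraries lay below its control libraries in both populations, as did 18.1% of tested genes in GFP-positive and 23.5% in GFP-negative cells. The log2 change was −0.09 (95% interval −0.22 to 0.04, adjusted p = 0.297, limma-trend) in GFP-positive cells and −0.21 (−0.33 to −0.08, adjusted p = 0.0197) in GFP-negative cells. Without GFP-positive SIX2 library 1 the GFP-positive value was −0.05. The GFP-negative call was lost under quantile normalization (−0.13, adjusted p = 0.115) and without GFP-negative SIX2 library 3 (−0.15, adjusted p = 0.0799) or GFP-negative control library 2 (−0.20, adjusted p = 0.0646) or 3 (−0.19, adjusted p = 0.0654).

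Per kilobase of transcript, the ratio of Rrm2 to Rrm1 was 1.32 to 1.67 in GFP-positive SIX2 libraries, against 0.646 to 0.846 in GFP-positive control libraries. In GFP-negative cells it was 1.61 to 2.23 in SIX2 libraries, against 0.702 to 0.717 in control libraries. Every SIX2 library thus had more Rrm2 than Rrm1 per kilobase, and every control library less. Which subunit is higher depends on the transcript lengths used, while the difference between labels does not. Tyms, thymidylate synthase, had 962 to 1212 normalized counts in GFP-positive SIX2 libraries, against 534 to 638 in GFP-positive control libraries. In GFP-negative cells Tyms had 1160.2 to 1337 in SIX2 libraries, against 611 to 668 in control libraries. Tyms rose by 0.93 and 0.99 on the log2 scale, and has 1 annotated pseudogene.

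Most genes that rebuild chromatin behind the fork were higher. Of 4 such members, 3 were called higher in GFP-positive cells and 4 in GFP-negative cells. Chaf1a (chr17:56040439-56072289, plus strand), the large subunit of the histone chaperone CAF-1, had 809, 789 and 547 normalized counts in GFP-positive SIX2 libraries, against 229, 330.4 and 299.5 in GFP-positive control libraries. In GFP-negative cells Chaf1a had 812, 762 and 677 in SIX2 libraries, against 542, 469 and 498 in control libraries. The labels were apart in both populations, with the lowest values in the GFP-positive control libraries. The log2 change was 1.31 ± 0.16 SE (limma-trend adjusted p = 8.74e-05) in GFP-positive cells and 0.57 ± 0.16 SE (adjusted p = 0.0183) in GFP-negative cells. Without GFP-negative SIX2 library 1 or 2, or GFP-negative control library 2 or 3, the GFP-negative call was lost (log2 changes 0.52, 0.56, 0.53 and 0.57, limma-trend adjusted p = 0.0627, 0.0557, 0.0677 and 0.05, the last just above the threshold before rounding). Chaf1a overlaps exons of Ubxn6 on the other strand.

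Chaf1b, the middle subunit of the same chaperone, rose by 0.98 and 0.73 on the log2 scale. Uhrf1, which brings the maintenance methylase to newly copied DNA, had 2263, 2212 and 1902 normalized counts in GFP-positive SIX2 libraries, against 813, 980.2 and 843 in GFP-positive control libraries. In GFP-negative cells Uhrf1 had 2222, 2463 and 2105 in SIX2 libraries, against 1465, 1257 and 1049.6 in control libraries. It rose in both without overlap (log2 1.27 ± 0.12 SE and 0.86 ± 0.12 SE, limma-trend adjusted p = 1.02e-05 and 0.000178). Slbp, which binds the stem-loop of histone mRNAs, had 1133, 1139.9 and 1091 in GFP-positive SIX2 libraries, against 993, 1047 and 755 in GFP-positive control libraries. In GFP-negative cells Slbp had 1252, 1383 and 1573 in SIX2 libraries, against 823, 926 and 823 in control libraries. The labels did not overlap in either population, but the change passed the test in GFP-negative cells (0.71 ± 0.12 SE, limma-trend adjusted p = 0.000714) and missed it in GFP-positive cells (0.28, 95% interval 0.02 to 0.54, adjusted p = 0.109). Without GFP-positive control library 3 the GFP-positive change of Slbp was 0.14 (limma-trend adjusted p = 0.397). Slbp also overlaps an unclassified transcript, Gm10459. The difference between its changes was itself not called (interaction −0.43, limma-trend adjusted p = 0.229).

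Among the regulators of the G1/S transition, both E cyclins were higher and E2f1 did not pass the test. Ccne1 (chr7:38097984-38107534, minus strand), cyclin E1, had 931, 957 and 793 normalized counts in GFP-positive SIX2 libraries, against 448, 372 and 434 in GFP-positive control libraries. In GFP-negative cells Ccne1 had 1132, 1131 and 1038 in SIX2 libraries, against 647, 549 and 573 in control libraries. The labels were apart in both, with log2 changes of 1.09 ± 0.11 SE and 0.90 ± 0.11 SE (limma-trend adjusted p = 1.53e-05 and 6.13e-05). Ccne2, cyclin E2, whose exons overlap Ints8 on the other strand, had 987 to 1249 in GFP-positive SIX2 libraries, against 519.7 to 666 in GFP-positive control libraries. In GFP-negative cells Ccne2 had 1295 to 1963 in SIX2 libraries, against 686 to 829 in control libraries. It rose by 0.91 and 1.11 on the log2 scale.

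E2f1 (chr2:154559407-154569892, minus strand), an activating E2F factor, had 118, 52.6 and 83.0 normalized counts in GFP-positive SIX2 libraries, against 85.7, 75.3 and 53.2 in GFP-positive control libraries. In GFP-negative cells E2f1 had 109.95, 112 and 107 in SIX2 libraries, against 101, 84.0 and 87.2 in control libraries. The GFP-positive labels overlapped throughout and the GFP-negative labels were apart by a small gap. The log2 changes were 0.19 (95% interval −0.39 to 0.78, adjusted p = 0.665, limma-trend) and 0.28 (−0.31 to 0.86, adjusted p = 0.495). Both intervals of E2f1 include the change of Gins2, which was called (0.32 and 0.47). Without GFP-positive SIX2 library 1 the GFP-positive value was −0.08, and without GFP-positive control library 3 it was −0.0016.

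Both members of the fork checkpoint and of Cdt1 destruction rose. Dtl (chr1:191537356-191575544, minus strand), the substrate receptor that sends Cdt1 to destruction in S phase, had 572, 583 and 611 normalized counts in GFP-positive SIX2 libraries, against 271, 229 and 201 in GFP-positive control libraries. In GFP-negative cells Dtl had 727, 656 and 761 in SIX2 libraries, against 469, 377 and 249.5 in control libraries. The labels did not overlap, and the log2 changes were 1.34 ± 0.19 SE and 1.01 ± 0.19 SE (limma-trend adjusted p = 0.000213 and 0.00128). Clspn, which carries the signal of a stalled fork, had 123 to 149.8 in GFP-positive SIX2 libraries, against 38.8 to 66.4 in GFP-positive control libraries. In GFP-negative cells Clspn had 136 to 173 in SIX2 libraries, against 59.1 to 98.5 in control libraries. It rose by 1.301 and 1.032 on the log2 scale.

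**Figure D2:**
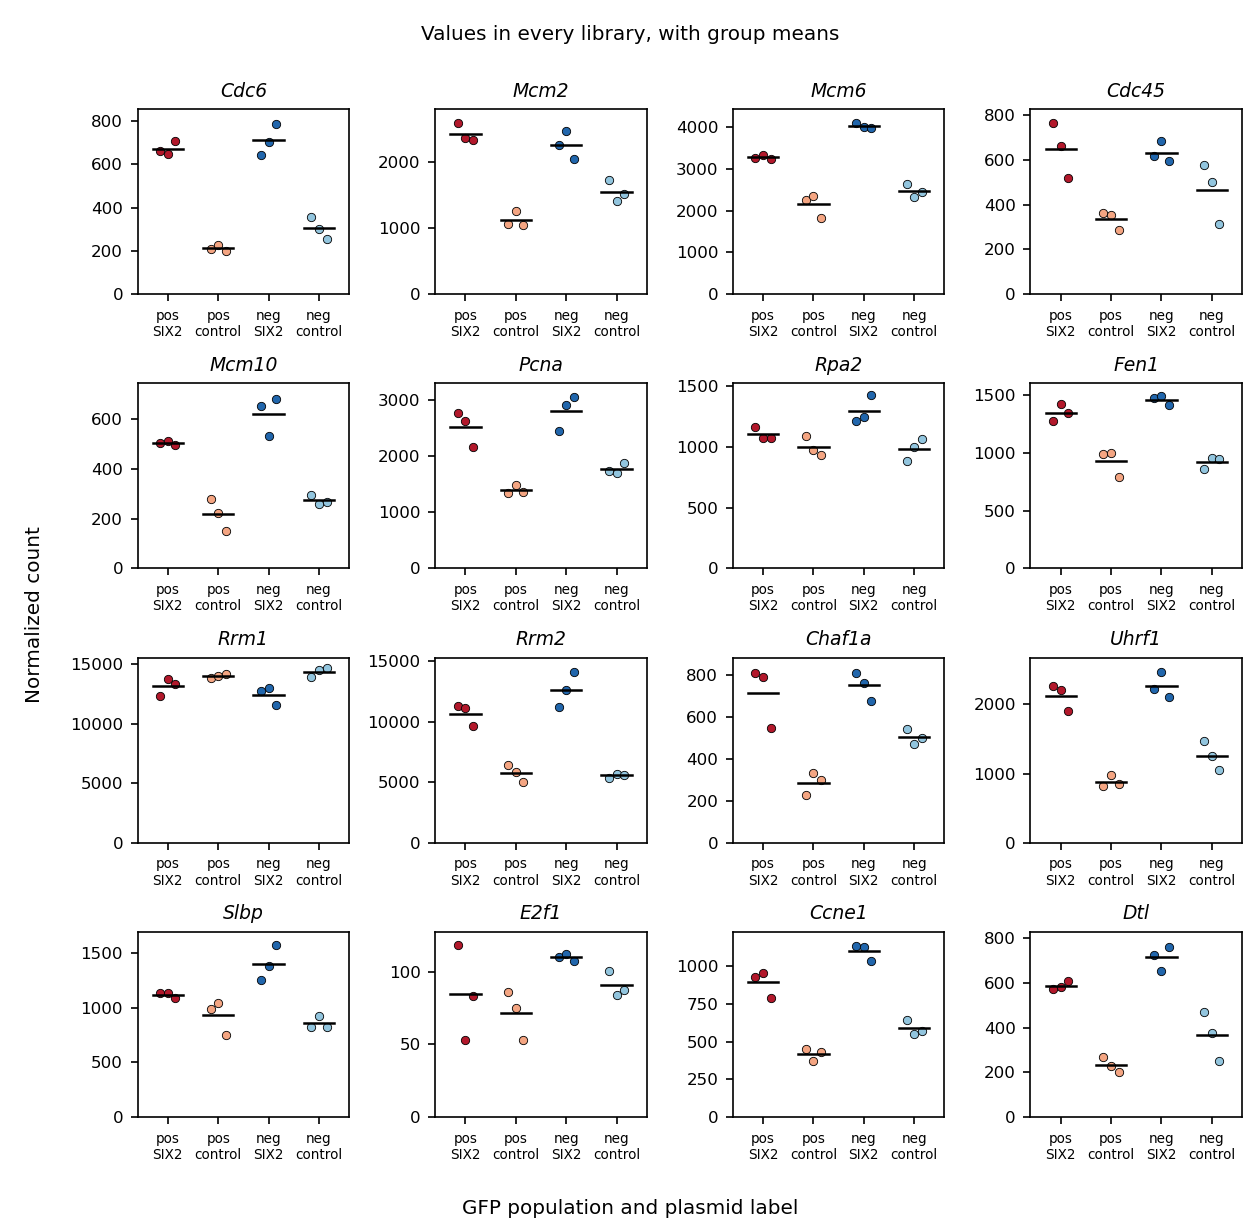
Normalized counts of 16 members in every library, 1 panel a gene, with each axis from 0. Points are libraries, bars are group means, and groups run GFP-positive SIX2, GFP-positive control, GFP-negative SIX2 and GFP-negative control from left to right. SIX2 points sit above control points of the same population in most panels, below them for Rrm1, and among them for E2f1 and Rpa2 in GFP-positive cells.

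**Figure D3:**
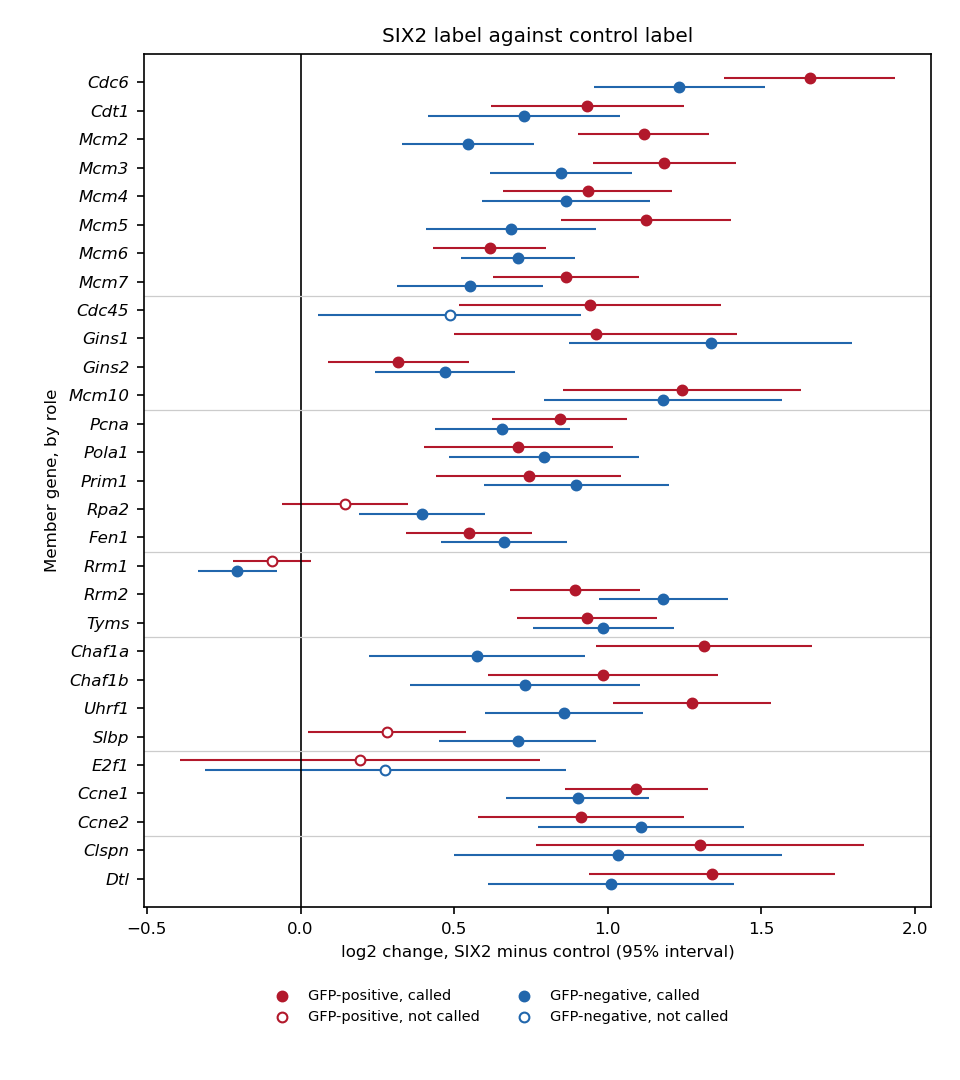
Log2 change between SIX2 and control labels for each member in GFP-positive (red) and GFP-negative (blue) cells, with 95% intervals from the moderated fit. Filled points were called at an adjusted p under 0.05. All but Rrm1 lie above 0 in both populations, and Rpa2, Slbp, E2f1 and Rrm1 are open in GFP-positive cells.

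The populations were next compared for the size of the change. Of the 29 members, 24 were called higher in both. The share of all tested genes called higher in both was not computed. It can be at most the 12.1% called higher in GFP-positive cells. Cdc45 was called higher in GFP-positive cells only, Rpa2 and Slbp in GFP-negative cells only, and Rrm1 and E2f1 in neither. These counts do not test a difference between the populations. The log2 change was larger in GFP-positive cells for 17 members and in GFP-negative cells for 12. The interaction, the change in GFP-positive minus that in GFP-negative cells, was called for 0 members and for 0% of tested genes by limma-trend. At an unadjusted p under 0.05 it held 7 members, 6 with a larger change in GFP-positive cells, against 16.7% of tested genes. Mcm2 had the smallest p (interaction 0.57 ± 0.14 SE, adjusted p = 0.0995), and Chaf1a had 0.74 ± 0.23 SE (adjusted p = 0.154). DESeq2 on recovered reads called these 2 genes (adjusted p = 0.012 for Mcm2 and 0.0385 for Chaf1a), and edgeR called 0 (0.102 for Mcm2 and 0.15 for Chaf1a).

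Between the sorted populations under the control label, the members leaned lower in GFP-positive cells. By limma-trend, 7 of 29 were called lower and 0 higher, where 2.56% of tested genes were called lower and 0.919% higher, and 0 members were higher by edgeR, by DESeq2 or at an unadjusted p under 0.05. The called genes were Chaf1a (−0.83, adjusted p = 0.0183), Uhrf1 (−0.51, 0.0371), Cdc6 (−0.51, 0.0493), Mcm5 (−0.50, 0.0499), Ccne1 (−0.50, 0.0264), Mcm2 (−0.47, 0.0252) and Mcm3 (−0.45, 0.038), given as log2 difference and adjusted p. The members' median log2 difference was −0.34, against 0.00 over all tested genes, and 25 of 29 were below 0. Groups did not overlap, with GFP-positive control below GFP-negative control, for 11 members and for 14.1% of tested genes. Chaf1a showed the widest gap, at 229, 330.4 and 299.5 normalized counts in GFP-positive control libraries, against 542, 469 and 498 in GFP-negative control libraries. The count of 7 members called lower rested on single libraries: it was 0 without GFP-positive control library 1 or GFP-negative control library 1, and 2 without GFP-negative control library 2. It was 3 without GFP-negative control library 3, GFP-positive control library 3 or GFP-negative SIX2 library 2, and 4 without GFP-positive control library 2 or GFP-positive SIX2 library 2. The median without GFP-positive control library 3 was −0.21.

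Under the SIX2 label, no member passed the test between the populations. By limma-trend 0 of 29 members were called in either direction, where 0.0137% of tested genes were called higher and 0.178% lower. At an unadjusted p under 0.05 there were 9 members, all lower in GFP-positive cells, against 13% of tested genes in either direction. edgeR called 0, and DESeq2 called 1, Ccne2. The median log2 difference was −0.22, against −0.02 over all tested genes, and the GFP-positive SIX2 libraries lay below the GFP-negative SIX2 libraries for 9 members (8.16% of tested genes). Ccne2 had the lowest value, a log2 difference of −0.54 (95% interval −0.87 to −0.20, adjusted p = 0.166, limma-trend). Whether the population difference itself changed with the plasmid label is the same test as the interaction, which called 0 members.

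**Figure D4:**
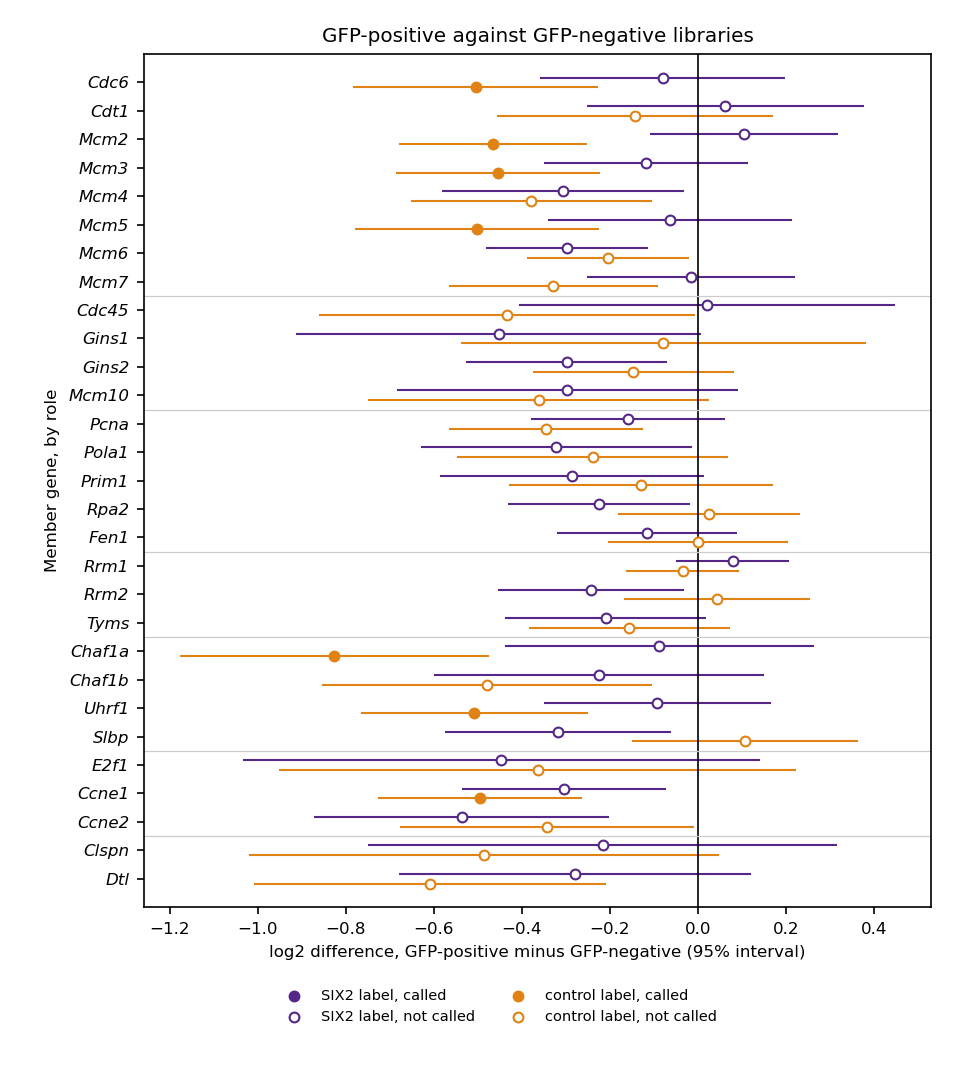
Log2 difference between GFP-positive and GFP-negative cells for each member, under the SIX2 label (purple) and the control label (orange), with 95% intervals from the moderated fit. Filled points were called at an adjusted p under 0.05: 7 under the control label, all below 0, and 0 under the SIX2 label.

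Across the 4 groups, the mean level was highest in GFP-negative SIX2 cells for 25 members, in GFP-positive SIX2 cells for 3 and in GFP-negative control cells for 1. It was lowest in GFP-positive control cells for 24 members, in GFP-negative control cells for 4 and in GFP-negative SIX2 cells for 1, Rrm1. The median deviation of the members from their own means over the 12 libraries was 0.18 to 0.44 on the log2 scale in GFP-positive SIX2 libraries, −0.69 to −0.45 in GFP-positive control libraries, 0.47 to 0.55 in GFP-negative SIX2 libraries and −0.35 to −0.11 in GFP-negative control libraries. All 12 libraries thus followed their plasmid label. GFP-negative control library 1, at −0.11, was the highest of the control libraries and had the fewest reads of all.

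Per kilobase of transcript, the members covered a wide range of levels. Rrm2 and Rrm1 were the highest, averaging 3953 and 3370 normalized counts per kilobase over the 4 group means, followed by Pcna at 1404 and Mcm7 at 706. The lowest were Pola1 at 54.1, E2f1 at 32.3 and Clspn at 21.5. Rrm2 averaged 4872 normalized counts per kilobase in GFP-positive SIX2 libraries, against 2629 in GFP-positive control libraries. The GFP-negative means were 5776 with SIX2, against 2537 with the control plasmid. Transcript GC content of the members was 42.0% to 59.0%, and 2 members, Cdt1 and E2f1, were in the highest decile of genes by GC. With each library's trend with GC removed, 24 members were called higher in GFP-positive cells and 26 in GFP-negative cells.

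Other replication genes moved the same way. For scale, here and in the lists that follow, 12.1% of all tested genes were called higher and 11.2% lower in GFP-positive cells. In GFP-negative cells the shares were 13.6% and 14.3%. Of 48 further genes of origin recognition, polymerases, clamp loading, nucleotide supply and fork upkeep, 34 were higher and 0 lower in GFP-positive cells, and 34 were higher and 1 lower in GFP-negative cells, with median log2 changes of 0.67 and 0.66. Rfc5, a clamp loader subunit, averaged 1206 normalized counts in GFP-positive SIX2 libraries, against 575 in GFP-positive control libraries (log2 1.07 ± 0.10 SE, limma-trend adjusted p = 1.01e-05). Asf1b, a histone chaperone, averaged 966 and 393 in the same groups (log2 1.29), and Tk1, thymidine kinase, averaged 1031 and 404 (1.36). In GFP-negative cells, Rpa1, the partner of Rpa2, averaged 3737 in SIX2 libraries, against 2327 in control libraries (log2 0.68 ± 0.08 SE, limma-trend adjusted p = 6.1e-05), and Tipin, a fork protection factor, rose by 0.68. In GFP-positive cells Rpa1 rose by 0.54.

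Not every subunit of a complex moved. Of the origin recognition complex, Orc1 (1.14 and 0.77 in GFP-positive and GFP-negative cells) and Orc6 (0.63 and 0.54) were called higher in both. Orc2 (0.16 and 0.04), Orc3 (−0.25 and −0.06) and Orc5 (0.19 and 0.10) were called in neither, and Orc4 (−0.02 and 0.37) was called in GFP-negative cells. The 1 gene called lower in GFP-negative cells was Usp1, which removes ubiquitin from Pcna, at a mean of 472 normalized counts in SIX2 libraries, against 813 in control libraries (log2 −0.80 ± 0.26 SE, limma-trend adjusted p = 0.0378). In GFP-positive cells Usp1 averaged 431 in SIX2 libraries, against 264 in control libraries (log2 0.64 ± 0.26 SE, adjusted p = 0.0983, limma-trend), and its interaction was 1.44 (adjusted p = 0.111). Usp1 and the origin recognition subunits are named here after their values were seen.

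**Figure D5:**
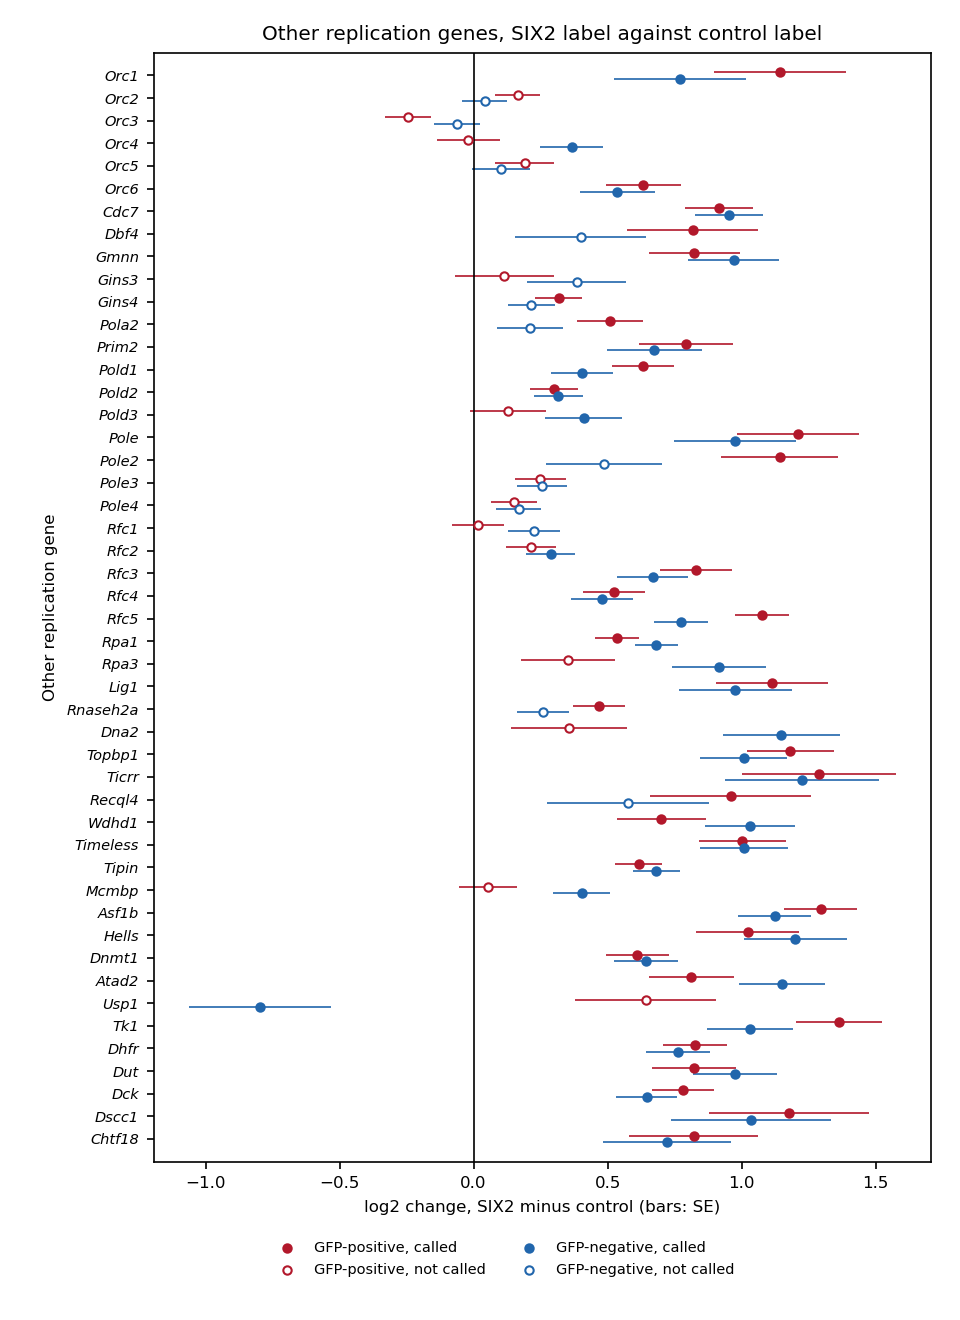
Log2 change between SIX2 and control labels for the 48 other replication genes in GFP-positive (red) and GFP-negative (blue) cells, with bars of 1 SE. Filled points were called at an adjusted p under 0.05, 34 of 48 higher in each population, and Usp1 is the 1 gene called lower, in GFP-negative cells.

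Genes of G2 and mitosis moved as well, while other genes of cell cycle entry moved in a mixed way. Of 25 such entry genes, 12 were higher and 2 lower in GFP-positive cells, and 12 higher and 3 lower in GFP-negative cells. Their median log2 changes were 0.19 and 0.28, with 8 and 7 genes below 0. The summed level of the entry genes overlapped between labels in both populations. Cdk6, a kinase of the D cyclins, rose by 1.11 and 1.28 and Ccnd2, cyclin D2, by 1.38 and 1.78 on the log2 scale in GFP-positive and GFP-negative cells. E2f8, a repressing E2F factor, fell by 0.26 and 0.49, and E2f4 changed by −0.19 (adjusted p = 0.291, limma-trend) and fell by 0.80 (adjusted p = 0.000336). Of 30 G2 and mitosis genes, 29 were higher and 0 lower in each population, with median log2 changes of 1.07 and 1.06, and Ccna2, a cyclin of S phase and G2, averaged 2537 normalized counts in GFP-positive SIX2 libraries, against 1075 in GFP-positive control libraries.

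Genes of muscle differentiation moved the other way. Of 30, 24 were lower and 0 higher in GFP-positive cells, and 26 were lower and 0 higher in GFP-negative cells, with median log2 changes of −0.44 and −0.42. Mymx, a fusion peptide of myoblasts, averaged 2518 normalized counts in GFP-positive SIX2 libraries, against 4624 in GFP-positive control libraries (log2 −0.88), and 2288 in GFP-negative SIX2 libraries, against 4056 in GFP-negative control libraries (−0.83). The summed level of the list did not overlap between labels, at 2090334 to 2406312 normalized counts in GFP-positive SIX2 libraries, against 2787640 to 2975614 in GFP-positive control libraries, and at 1879574 to 2028209 in GFP-negative SIX2 libraries, against 2475673 to 2586670 in GFP-negative control libraries. The part that a changed share of differentiating cells has in the replication genes was not tested. Of 11 tested progenitor markers, 4 were higher and 2 lower in GFP-positive cells and 4 higher and 5 lower in GFP-negative cells. Of all tested genes, 12.1% were called higher and 11.2% lower in GFP-positive cells, and 13.6% and 14.3% in GFP-negative cells. Among these markers, Myf5, a myoblast factor, had log2 changes of 0.77 and 1.32 and Pax3 of −2.82 and −2.06.

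Markers of other cell types were present at low or mixed levels. Of all tested genes, 12.1% were called higher in GFP-positive and 13.6% in GFP-negative cells. The 9 endothelial markers in the table summed to 60.2 to 102 normalized counts in GFP-positive SIX2 libraries, against 36.0 to 75.9 in GFP-positive control libraries. In GFP-negative cells they summed to 39.1 to 100.8 with SIX2, against 43.6 to 66.4 with the control plasmid. The 1 tested gene of that list, Egfl7, was higher in GFP-positive cells (1.67, limma-trend adjusted p = 0.00604) and was not called in GFP-negative cells. The 7 immune markers summed to 82.2 to 124 in GFP-positive SIX2 libraries, against 107 to 117 in GFP-positive control libraries. Their GFP-negative sums were 91.6 to 119 with SIX2, against 109 to 126 with the control plasmid, and 1 of 4 tested genes was higher in each population.

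Of the fibroadipogenic list 7 genes were in the table, and their sum is mostly Gsn, at 2672 to 3667 normalized counts. The list summed to 2901 to 3095 in GFP-positive SIX2 libraries, against 2721 to 3248 in GFP-positive control libraries. Its GFP-negative sums were 3164 to 3516 with SIX2, against 3348 to 3721 with the control plasmid, and 1 of 4 tested genes was higher in each population. The mural list, whose sum is mostly Des, a gene that muscle cells express, came to 183422 to 199492 in GFP-positive SIX2 libraries, against 212812 to 232354 in GFP-positive control libraries. Its GFP-negative sums were 148948 to 163478 with SIX2, against 213677 to 242111 with the control plasmid. Of 8 tested mural genes, 3 were higher (Notch3, Mcam and Pdgfrb) and 2 lower (Cspg4 and Des) in GFP-positive cells, and 2 were higher (Notch3 and Rgs5) and 3 lower (Acta2, Cspg4 and Des) in GFP-negative cells. Notch3, a receptor of mural cells that muscle stem cells also express, averaged 274 normalized counts in GFP-positive SIX2 libraries, against 95.2 in GFP-positive control libraries. The Schwann cell list was lower with SIX2, at 2899 to 3372 in GFP-positive SIX2 libraries, against 3958 to 4647 in GFP-positive control libraries, and its members Ngfr and Erbb3 were called lower in both populations. Its GFP-negative sums were 2236 to 2980 with SIX2, against 3933 to 4660.05 with the control plasmid. Mitochondrially encoded genes were lower for 9 of 15 in GFP-positive and 6 of 15 in GFP-negative cells, and 0 were higher. Of all tested genes, 11.2% were called lower in GFP-positive and 14.3% in GFP-negative cells. The part of these values in the change of the replication genes was not tested.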

How the data were processed

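RNA was sequenced from 12 libraries made with SMART-Seq2 and Tn5, per the labels' protocols, a method that does not mark strand. The submitters' processing notes list STAR 2.7.11a, RSEM 1.3.3, DESeq2 1.42.0, FastQC 0.12.1, MultiQC 1.19 and the build GRCm38, without settings. The authors deposited normalized counts per gene, a signal on a linear scale in which a library's reads are divided by a size factor. Every library's values were whole multiples of 1 read (100% within 0.0001), worth 0.553 to 2.14 normalized counts. Depth was 12438885 to 47299937 reads a library, so counting error was small except for the lowest members. Groups came from the sample titles.

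Genes reaching 10 normalized counts in 3 libraries, 14580 in all, were tested by limma-trend (R 4.3.3, limma 3.58.1) on log2(value + 1) with all 12 libraries in 1 fit of the 4 group means. Tests were two-sided and Benjamini-Hochberg adjusted per comparison, with a threshold of 0.05, and were tested on simulated data. Fold changes on this scale understate those of low genes. Alternatives were pseudocounts, filters, TMM and quantile scaling, only the compared libraries, a replicate block, library weights, each library left out, edgeR 4.0.16 and DESeq2 1.42.0 on recovered reads, thinning and GC correction. Identifiers matched the GENCODE annotation of GRCm38 for 99.8% of genes.

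The members and lists were chosen with earlier results of these data known. Values in every library are printed for the member with the smallest p of each role in each plasmid comparison, for each member not called higher in either, and for the smallest p of the other comparisons. Up to 4 called genes with the smallest p are named from other lists, and further names were chosen after their values were seen. Figures were drawn with matplotlib 3.10.9.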

Additional observations from a re-analysis of the deposited data

How the results depend on the processing

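Under 25 alternatives, between 24 and 25 members stayed called higher in GFP-positive cells and between 25 and 27 in GFP-negative cells, 24 of them under every alternative in each population. Leaving out each library in turn gave 24 to 25 and 25 to 27 members. With a library left out, the median log2 change was 0.84 to 1.02 in GFP-positive and 0.70 to 0.87 in GFP-negative cells, the last without GFP-negative control library 1. Same-numbered libraries showed no sign of pairing (correlation of deviations −0.20 to 0.05 over 18 pairs, with 1 of 12 libraries closest to its own number). With 3 libraries a group, a weak shared source could go unseen. With the replicate number as a block, 24 members were higher in GFP-positive cells, and 27 were higher and 1 lower in GFP-negative cells. Between populations under the control label, 5 members were lower with this block, and all calls fell to 298 from 507. Other values that moved follow, and the cause was not tested. For SIX2 against control in GFP-negative cells, members called lower were 0 under quantile normalization and 0 to 1 with a library left out, and called genes in all were 6142 with library weights (4075 without; 2989 to 4301 with a library left out). Between populations under the control label, 7 members lower became 4 with no filter, 3 under quantile normalization, 4 with only the compared libraries and 0 to 8 with a library left out, with medians of −0.40 to −0.21, and all calls were 1520 with library weights, 1087 by DESeq2 and 68 to 820 with a library left out. Under the SIX2 label, DESeq2 called 1 member lower, and all calls, 28, became 294 by DESeq2, 16 after thinning, 54 with the GC trend removed and 13 to 60 with a library left out, with medians of −0.26 to −0.16. For the interaction, DESeq2 called 2 members, and all calls, 0, became 282 with library weights, 558 by DESeq2, 6 with the GC trend removed and 0 to 171 with a library left out, with medians of 0.02 to 0.15. The log2 change of E2f1 in GFP-positive cells ranged over −0.0811 to 0.493 with a library left out, and reversed without GFP-positive SIX2 library 1 (−0.0811) and without GFP-positive control library 3 (−0.0016). Depth limits E2f1, Gins1 and Clspn most, with lowest counts of 27, 36 and 46 reads.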
